A study of Mus musculus with 8 samples.

Results

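The comparison of K14-TCL1 transgenic epidermis with wild-type (WT) epidermis rested on 5 of the 8 arrays of the series, 3 from K14-TCL1 mice and 2 from WT mice, chosen by genotype alone. WT mice were C57bl/6. K14-TCL1 mice carried a human TCL1A transgene under the keratin 14 promoter, which is active in basal keratinocytes (KCs), on a Tcl1-/- background, so they lacked the mouse gene in all cells. The mice were adult. The strain of the mutants, the number of transgenic lines, the sex of the mice and their exact age are not given in the sources used here. In every mouse the skin was depilated, which starts hair regrowth and activates KCs, and patches were taken 3 days later. The epidermis was split from the dermis with dispase and its RNA was hybridised to Affymetrix mouse arrays, 1 array per animal. The third genotype, Tcl1-/- without the transgene (3 arrays), was treated alike and its values stand beside those of K14-TCL1 where they help to place them. K14-TCL1 against WT holds the deletion and the transgene together, and their parts cannot be told apart in that contrast.

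TCL1 proteins bind AKT kinases and enhance their activity, and they are best known from lymphocytes and early embryos. The epidermis renews itself from a basal layer of dividing KCs, whose daughters pass through spinous and granular layers and end as cornified cells wrapped in a cross-linked envelope. Injured or depilated KCs switch to an activated state, with stress keratins, alarmins, connexins and proteases that are scarce in resting skin.

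The arrays read KC RNA in each genotype. The basal keratin gene Krt14 lay at RMA intensities of 16990 and 16990 in the WT arrays and 16500, 16130 and 16320 in the K14-TCL1 arrays, near the top of the scale (the highest value of the table is 20952), where differences can be compressed. The Krt14 difference did not pass the test (-0.06 ± 0.033 on the log2 scale, K14-TCL1 minus WT ± SE, as for all differences here, adjusted p = 0.24), except with a prior variance that followed the mean intensity (adjusted p = 0.0177). The mouse Tcl1 probe set read 31.1 and 29.8 in WT and 35.8, 30.6 and 30.7 in K14-TCL1, close to background (0.09 ± 0.069, adjusted p = 0.418). Whether it lies in the deleted part of the gene or can bind the human transgene is not known here, so it checks no label. Pairs of K14-TCL1 arrays correlated with r = 0.9976 to 0.9985, the WT pair with 0.9986, and K14-TCL1 with WT arrays with 0.9952 to 0.9964, across all 22690 probe sets, which are not independent of each other.

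Of 9731 tested genes, 2096 (21.5%) were called at an adjusted p under 0.05, 1138 (11.7%) of them higher and 958 (9.84%) lower in K14-TCL1 than in WT. The test was limma's moderated statistic with Benjamini-Hochberg adjustment over all tested genes, and every adjusted p given here comes from it. Most differences were small, with a median of 1.19-fold among called genes, and 46 genes were higher and 11 lower by more than 2-fold. The median over all tested genes was 0.010 on the log2 scale. The K14-TCL1 and WT arrays did not overlap for any of the 2096 called genes, but they did not overlap for 4926 of all 9731 genes (50.6%) either, which 3 arrays against 2 make common. The 2 WT arrays set the count: without WT replicate 1 it was 971 and without WT replicate 2 it was 1054, of which 923 and 988 were among the 2096. Because the samples are whole epidermal sheets, fewer cells of a type and less RNA per cell cannot be told apart for any gene here.

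**Figure D1:**
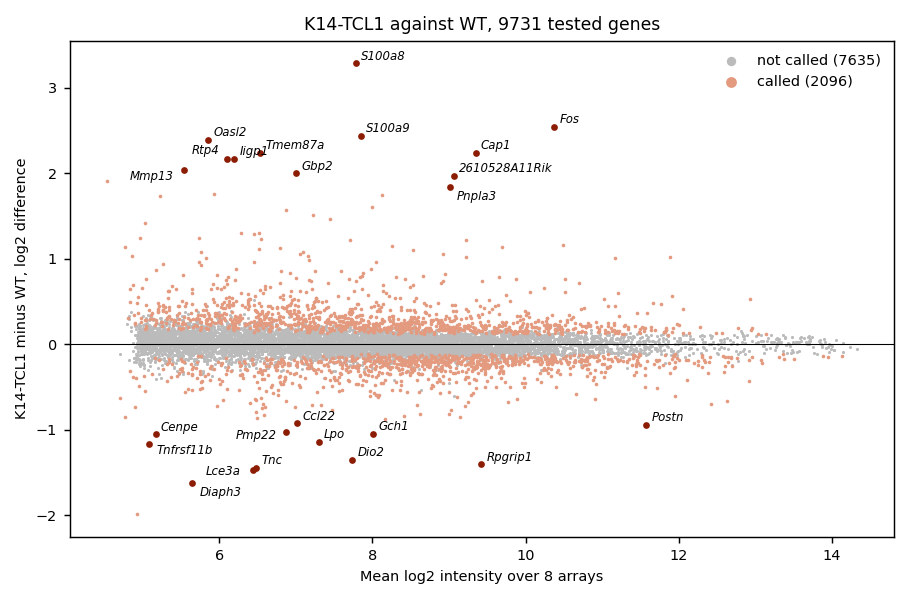
Log2 difference between K14-TCL1 (3 arrays) and WT (2 arrays) against the mean log2 intensity over all 8 arrays, 1 point per tested gene, light red points called at an adjusted p under 0.05 (2096), grey points not (7635) and dark named points those with the 12 largest called differences in each direction at a mean of at least 5. S100a8 and Fos stand highest, at 3.28 and 2.54, and the named falls reach -1.62 at Diaph3.

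Among the 12 genes that rose most in K14-TCL1, at a mean of at least 5 on the log2 scale, were those of alarmins, interferon-induced proteins, an AP-1 factor and a collagenase. S100a8, which encodes a subunit of the alarmin calprotectin, read 132 and 127 in WT and 1306, 1198 and 1296 in K14-TCL1, 9.74 times the WT level (3.28 ± 0.057, adjusted p = 3.65e-08). Its partner S100a9 read 148 and 144 in WT and 775, 793 and 797 in K14-TCL1 (2.44 ± 0.055, adjusted p = 8.15e-08). In Tcl1-/- both genes lay under the WT arrays, with S100a8 at 51.3, 56.7 and 54.7 and S100a9 at 91.3, 97 and 85.1, so K14-TCL1 stood above the other genotypes for the pair. Fos, the AP-1 subunit induced within minutes of a stimulus, read 301 and 329.8 in WT and 1809, 1916 and 1792 in K14-TCL1 (2.54 ± 0.052, adjusted p = 6.91e-08), and was higher still in Tcl1-/-, at 2439, 2528 and 2561. Mmp13, a collagenase of wounded and remodelling skin, read 32.8 and 45.8 in WT, 159, 180.2 and 142 in K14-TCL1 and 13.9, 15.6 and 16.1 in Tcl1-/- (2.04 ± 0.15 for K14-TCL1 minus WT, adjusted p = 5.21e-05).

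The 12 largest rises also held genes outside these groups. Tmem87a, which encodes a membrane protein of the Golgi, read 47.6 and 58 in WT and 246, 249.5 and 246 in K14-TCL1 (2.23 ± 0.085, adjusted p = 1.7e-06), while the Tcl1-/- arrays, at 52.3, 51.9 and 46, overlapped those of WT. The transcript 2610528A11Rik had 355 and 339.7 in WT, 1332, 1474 and 1288 in K14-TCL1 and 287, 276 and 272 in Tcl1-/- (1.97 ± 0.060, adjusted p = 6.03e-07). In contrast, Cap1, an actin monomer binding protein gene, and Pnpla3, a lipid droplet acyltransferase and lipase gene, were high in both mutants. Cap1 read 185 and 175 in WT, 845, 886 and 821 in K14-TCL1 and 1144, 1166 and 1209 in Tcl1-/- (2.24 ± 0.048 against WT, adjusted p = 6.91e-08). Pnpla3 read 195 and 177 in WT, 634, 699.7 and 655 in K14-TCL1 and 777, 797 and 793 in Tcl1-/- (1.84 ± 0.056, adjusted p = 6.03e-07). Both mutant means are set against the same 2 WT arrays, so a low WT value would raise both.

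**Figure D2:**
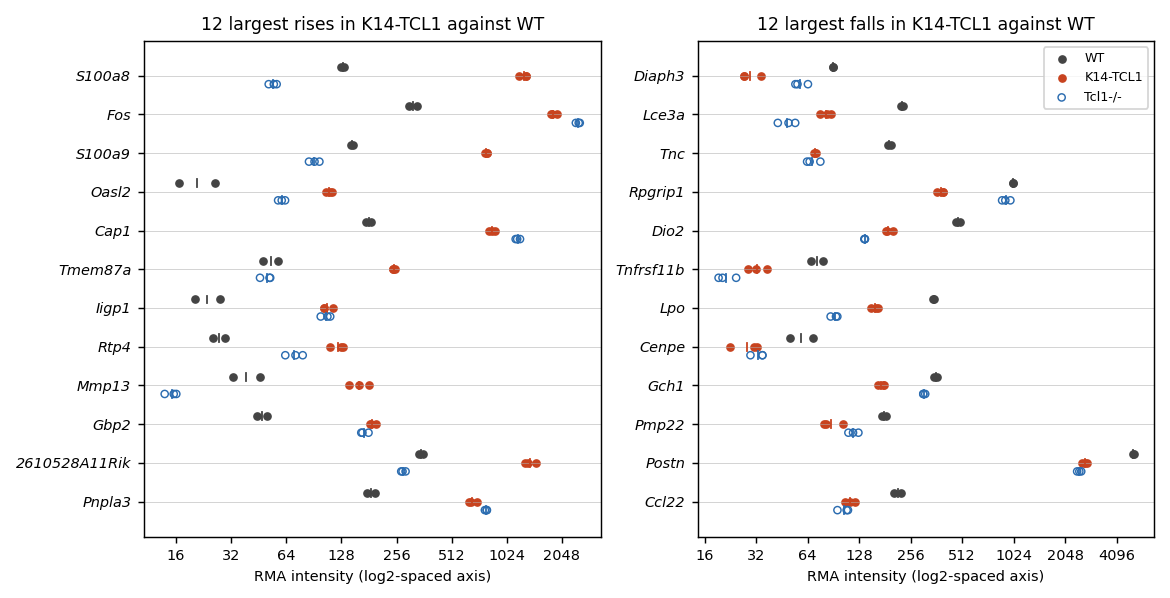
RMA intensity on a log2-spaced axis of the 12 genes with the largest rises (left) and falls (right) in K14-TCL1 against WT, 1 point per array, with filled points for WT (2) and K14-TCL1 (3), open points for Tcl1-/- (3) and short lines at group means of log2 values. No K14-TCL1 point overlaps the WT points, since the genes were chosen without such overlap. The Tcl1-/- points lie on the far side of WT for S100a8 and Mmp13 and near WT for Tmem87a and Rpgrip1.

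The largest falls included matrix, envelope, mitosis and signalling genes. Rpgrip1, a gene of the photoreceptor cilium, read 1022 and 1020 in WT and 394, 367 and 397 in K14-TCL1 (-1.41 ± 0.056, adjusted p = 1.92e-06), against 877, 916 and 981 in Tcl1-/-. Of its 4 probe sets 2 had a positive difference, of up to 0.06, so the fall is that of the brightest probe set. Gch1, the first enzyme of tetrahydrobiopterin synthesis, read 352 and 365 in WT, 176, 178 and 164 in K14-TCL1 and 304, 312 and 304 in Tcl1-/- (-1.05 ± 0.046, adjusted p = 3.22e-06). For both genes the Tcl1-/- arrays stood between the other genotypes and much nearer to WT. Dio2, the deiodinase that activates thyroid hormone, read 472 and 499 in WT, 183, 201 and 185 in K14-TCL1 and 138, 137 and 138 in Tcl1-/- (-1.36 ± 0.049, adjusted p = 1.22e-06). Tnfrsf11b, which encodes the decoy receptor osteoprotegerin, fell from 67 and 78.4 to 32, 37.2 and 28.5 (-1.16 ± 0.13, adjusted p = 0.000621), and Pmp22, a myelin and epithelial membrane protein gene, from 184 and 173 to 103, 81.4 and 79.5 (-1.03 ± 0.11, adjusted p = 0.000432). Dio2 and Tnfrsf11b were lower again in Tcl1-/-, the latter at 20.3, 19.3 and 24.4.

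Antimicrobial genes moved both ways beside the calprotectin pair. In the alarmin and antimicrobial list 50% were higher and 20.83% lower, against 11.7% and 9.84% of all tested genes. Of 24 tested alarmin and antimicrobial genes, 12 were higher and 5 lower (3 lower without WT replicate 2), with a median difference of 0.15 against 0.010 over all tested genes. Wfdc12, which encodes a whey acidic protein inhibitor with antibacterial activity, read 203 and 205 in WT and 667, 673 and 709.6 in K14-TCL1 (1.74 ± 0.054, adjusted p = 6.39e-07), above the 139, 133 and 149 of Tcl1-/-. Defb8, a beta-defensin gene, read 99.8 and 122 in WT and 345, 329 and 327 in K14-TCL1 (1.60 ± 0.076, adjusted p = 5.5e-06), and Chil1, a chitinase-like protein gene, 313 and 294 and 612, 640 and 633 (1.05 ± 0.041, adjusted p = 1.84e-06). These were up in Tcl1-/- as well, with differences of 1.64 and 0.75 from WT. On the other side, Lpo, which encodes lactoperoxidase, read 346 and 353 in WT, 161, 165 and 149 in K14-TCL1 and 95.4, 93.7 and 87.2 in Tcl1-/- (-1.14 ± 0.056 for K14-TCL1, adjusted p = 6.46e-06). Pglyrp2, which cleaves bacterial peptidoglycan (-0.86 ± 0.12), and Ang, an angiogenin ribonuclease gene (-0.69 ± 0.085), fell too. The lipocalin gene Lcn2 rose by 0.64 ± 0.12 and the alarmin cytokine gene Il33 by 0.36 ± 0.034, while Il1a (-0.07 ± 0.16, adjusted p = 0.804) and Il1b (-0.12 ± 0.079, adjusted p = 0.322) did not pass the test.

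Activation genes of KCs were mostly above WT (55% higher and 15% lower, against 11.7% and 9.84% of all tested genes). Of 20 tested genes of activation keratins and injury response, 11 were higher and 3 lower, and their median was 0.33 against WT and 0.86 against Tcl1-/-, where 16 were higher (12.7% of all tested genes were) and none lower (13.9%). The medians over all tested genes were 0.010 and -5.57e-05 in these contrasts. The keratin gene Krt6b read 5400 and 5196 in WT, 10840, 10840 and 10640 in K14-TCL1 and 1085, 1075 and 1058 in Tcl1-/-, and was 2.03 times the WT level in K14-TCL1 (1.02 ± 0.036, adjusted p = 1.22e-06). Its close copy Krt6a read 5315 and 5280, 8034, 7608 and 7825 and 1500, 1567 and 1550 in the same order (0.56 ± 0.039, adjusted p = 4.84e-05). The copies can share signal, and the order K14-TCL1, WT, Tcl1-/- was the same in both. The gelatinase gene Mmp9 rose from 99.2 and 98.5 to 151, 148 and 157 (0.62 ± 0.048, adjusted p = 8.34e-05).
Not all markers of activation rose. Krt17 (-0.12 ± 0.042, adjusted p = 0.0735) and Sprr1b (-0.09 ± 0.039, adjusted p = 0.136) did not pass the test, except with the prior variance that followed the mean intensity (both lower, adjusted p = 0.00741 and 0.0377). The hyaluronan receptor gene Cd44 fell (-0.37 ± 0.035, adjusted p = 0.000238), as did the growth factor gene Epgn, from 557 and 577 to 388, 398 and 386 (-0.54 ± 0.040, adjusted p = 7.15e-05). Of 8 tested connexin genes, whose products form gap junctions, 2 were higher and 3 lower (1 lower without WT replicate 1 or 2). With all arrays, 25% of connexin genes were higher and 37.5% lower, against 11.7% and 9.84% of all tested genes. Gjb2 read 807 and 808 in WT, 1778, 1795 and 1743 in K14-TCL1 and 376, 398 and 403 in Tcl1-/- (1.13 ± 0.041, adjusted p = 1.22e-06). Gjb6 read 266 and 263, 487, 548 and 515 and 134, 133 and 140.1 (0.96 ± 0.054, adjusted p = 1.27e-05). Gja1 read -0.21 ± 0.041 and lost its call without WT replicate 1 or 2 (adjusted p up to 0.0658).

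Genes of the cornified envelope parted by family. All 11 tested late cornified envelope (Lce) genes, which lie in a cluster and encode late envelope precursors, were lower in K14-TCL1 (9.84% of all tested genes were), with differences from -1.47 to -0.22 and a median of -0.65. Lce3a read 229.6 and 223 in WT, 75.2, 88.2 and 82.8 in K14-TCL1 and 54.1, 49.5 and 42.8 in Tcl1-/- (-1.47 ± 0.098 for K14-TCL1 minus WT, adjusted p = 3.61e-05). Lce1h, at 7353 and 7346 in WT, fell to 4459, 4530 and 4603 in K14-TCL1 and lay between these at 5452, 5458 and 5455 in Tcl1-/- (-0.70 ± 0.034, adjusted p = 5.76e-06). Lce3c fell from 933 and 941 to 532, 488 and 532 (-0.86 ± 0.052, adjusted p = 2.3e-05). The members are near copies and their probe sets can share signal. With probe sets marked as less specific left out, 7 Lce genes were called lower. Of 9 tested small proline-rich (Sprr) genes, which encode other envelope precursors, 2 were higher and none lower. These were Sprr2i, from 82.5 and 85.6 in WT to 175, 195 and 175 (1.11 ± 0.064, adjusted p = 1.49e-05), and Sprr2f, from 35.3 and 39.3 to 69.9, 69 and 75.5 (0.94 ± 0.088, adjusted p = 0.000222), while the Sprr median was 0.03. The called share of Sprr genes against WT, 22.22%, was near the 21.5% of all tested genes. Against Tcl1-/-, 7 of the 9 Sprr genes were higher in K14-TCL1 with a median of 0.55, and 8 of the 11 Lce genes were lower and 2 higher with a median of -0.16. Of all tested genes, 12.7% were higher and 13.9% lower in K14-TCL1 against Tcl1-/-. The AP-1 element, searched as TGANTCA, which reads the same on either strand, stood in the promoter window (250 bases before to 50 after a gene's start) of 7 of 8 Sprr genes and of 0 of 10 Lce genes that had one, against 520 (6.80%) of 7646 tested genes. The element also stood in 5 of 12 windows of the activation and injury-response list. No match says only that these letters are not in the window.

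Spinous and granular layer genes leaned lower (54.17% lower and 8.333% higher, against 9.84% and 11.7% of all tested genes). Of 24 tested, 13 were lower and 2 higher, with a median of -0.15, and 8 were lower without WT replicate 1 or WT replicate 2 (1 higher without the latter). Ivl, the envelope scaffold involucrin, read 808 and 815 in WT and 558, 516 and 542 in K14-TCL1 (-0.59 ± 0.041, adjusted p = 4.61e-05). The lipoxygenase gene Alox12e read 2769 and 2651 in WT and 1898, 1910 and 1942 in K14-TCL1 (-0.50 ± 0.036, adjusted p = 5.37e-05), and Alox12b, which oxidises barrier ceramides, 1111 and 1083 and 831, 838 and 831 (-0.40 ± 0.034, adjusted p = 0.000145). In Tcl1-/- the first stood far above WT, at 5149, 5118 and 5126, and the second beside it, at 1146, 1132 and 1158. Tgm3, a transglutaminase that cross-links the envelope, rose from 181 and 182 to 288, 305 and 257 (0.64 ± 0.070, adjusted p = 0.000526). The major differentiation keratin genes Krt1 (-0.09 ± 0.033, adjusted p = 0.0802) and Krt10 (-0.10 ± 0.034, adjusted p = 0.0803) and the loricrin gene Lor (-0.06 ± 0.034, adjusted p = 0.22) lay slightly under WT, near the top of the scale, and did not pass the test. With the prior variance that followed the mean intensity they did (adjusted p = 0.00107, 0.00118 and 0.0165). The profilaggrin gene Flg read 4155 and 4295 in WT and 3638, 3771 and 3720 in K14-TCL1 (-0.19 ± 0.036, adjusted p = 0.00821), a call lost without WT replicate 2 (adjusted p = 0.0712).
Among 25 tested genes of desmosomes, tight junctions and adherens junctions, 9 were lower and 3 higher, and 4 were lower without WT replicate 1 or 2. With all arrays, 36% of these junction genes were lower and 12% higher, against 9.84% and 11.7% of all tested genes. The desmosomal cadherin gene Dsc1 fell by 0.50 ± 0.084. The virus receptor gene Cxadr rose from 483 and 458 to 779, 807 and 763 on its brightest probe set, but its other 3 probe sets had differences of the opposite sign.

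The basal layer genes that fell included matrix and adhesion genes. In the basal list 50% were lower and 16.67% higher, against 9.84% and 11.7% of all tested genes. Of 18 tested basal layer genes, 9 were lower and 3 higher, and 3 and 5 were lower without WT replicate 1 and WT replicate 2 (1 higher without the latter). Postn, the matrix protein periostin, read 5157 and 5105 in WT, 2677, 2735 and 2587 in K14-TCL1 and 2482, 2410 and 2546 in Tcl1-/- (-0.94 ± 0.041 for K14-TCL1, adjusted p = 3.22e-06). Tnc, the wound matrix protein tenascin C, read 195 and 188, 70.3, 71.3 and 69.2 and 65.7, 63.5 and 75.9 (-1.45 ± 0.071, adjusted p = 6.3e-06). For both, K14-TCL1 and Tcl1-/- did not differ past the threshold (adjusted p = 0.0665 and 0.654). Itga3, an integrin that binds laminin, fell from 749 and 698 to 554, 574 and 603 (-0.33 ± 0.049, adjusted p = 0.00268). Krt15, a keratin of slowly cycling basal and bulge cells, rose from 6029 and 6111 to 8801, 8776 and 8572 (0.52 ± 0.034, adjusted p = 3.18e-05), and the KC master regulator gene Trp63 did not pass the test (-0.08 ± 0.048, adjusted p = 0.293).
In 31 tested matrix and metalloproteinase genes, a list that shares Postn, Tnc and others with the basal one, 10 were higher and 8 lower (4 lower without WT replicate 1). With all arrays, 32.26% of the matrix list were higher and 25.81% lower, against 11.7% and 9.84% of all tested genes. The matricellular genes Ccn1 (0.78 ± 0.086) and Ccn2 (1.14 ± 0.13) and the basement membrane collagen gene Col4a2 (0.64 ± 0.12) rose, and Sparc fell (-0.42 ± 0.050).

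Interferon-stimulated genes rose together in K14-TCL1, where 11.7% of all tested genes were higher and 9.84% lower than in WT. In an infected or inflamed tissue, interferons act through STAT and IRF factors, which bind a DNA element called ISRE in the promoters of antiviral genes. Of 33 tested antiviral genes, 27 were higher and none lower than in WT, with a median difference of 0.66. All 7 tested GTPase genes, which disrupt vacuoles that hold pathogens, were higher, with a median of 1.22. A gene was tested only if its highest genotype mean reached 5 on the log2 scale, so a gene low in WT entered through a mutant. Of the measured genes, 33 of 39 antiviral and 7 of 9 GTPase genes were tested. With no filter on low intensities, 27 antiviral and 8 GTPase genes were higher and none lower. With single arrays left out in turn, 26 to 29 antiviral and 6 to 7 GTPase genes were called higher. Of 24 tested genes of antigen presentation, 14 were higher and none lower, with a smaller median of 0.21. In Tcl1-/- against the same WT arrays, 25 antiviral genes were higher and 1 lower (median 0.38), 6 GTPase genes were higher (median 1.09) and 16 of the 24 antigen presentation genes were (median 0.22), where 14.4% of all tested genes were higher. For antigen presentation, K14-TCL1 against Tcl1-/- gave 3 higher and 7 lower genes, with a median of -0.06.
Promoter windows are given for genes that rose here and, further on, for genes of the mitosis list that fell, since members of both lists moved together. The genes were chosen for holding a promoter element, and some that moved more, such as Oasl2, Rtp4 and Diaph3, are not among them. The windows came from RefSeq on the GRCm38.p6 build, where 7646 of the 9731 tested genes had one. ISRE was searched as a pair of TTTC blocks parted by any 2 bases, or of GAAA blocks, which is the same element read on the other strand. It stood in the window of 11 of 22 antiviral genes and 4 of 5 GTPase genes that had one, and of 276 (3.61%) of the 7646 genes. Of antigen presentation genes with a window, 3 of 19 held it. Windows of 4 genes of the antiviral and GTPase lists that hold ISRE are given, with ISRE in capitals. Genes of a single chromosome were left out of this choice, and the 4 had the largest rises among the rest. They were Gbp2 (chr3:142620413-142620712, + strand), Ifit1 (chr19:34640639-34640938, + strand), Irgm2 (chr11:58214727-58215026, + strand) and Igtp (chr11:58199306-58199605, + strand).
Gbp2: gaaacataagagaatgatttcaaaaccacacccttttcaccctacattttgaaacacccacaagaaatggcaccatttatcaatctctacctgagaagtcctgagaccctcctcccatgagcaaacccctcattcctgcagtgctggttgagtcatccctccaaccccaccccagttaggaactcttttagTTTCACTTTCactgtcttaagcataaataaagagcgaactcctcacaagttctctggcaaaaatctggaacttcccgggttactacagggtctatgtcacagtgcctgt
Ifit1: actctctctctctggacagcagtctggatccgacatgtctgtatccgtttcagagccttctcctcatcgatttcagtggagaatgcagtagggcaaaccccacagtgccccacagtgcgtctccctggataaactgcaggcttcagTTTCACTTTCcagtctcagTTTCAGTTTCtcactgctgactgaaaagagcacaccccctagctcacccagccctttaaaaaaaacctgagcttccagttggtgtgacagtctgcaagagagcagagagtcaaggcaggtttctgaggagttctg
Irgm2: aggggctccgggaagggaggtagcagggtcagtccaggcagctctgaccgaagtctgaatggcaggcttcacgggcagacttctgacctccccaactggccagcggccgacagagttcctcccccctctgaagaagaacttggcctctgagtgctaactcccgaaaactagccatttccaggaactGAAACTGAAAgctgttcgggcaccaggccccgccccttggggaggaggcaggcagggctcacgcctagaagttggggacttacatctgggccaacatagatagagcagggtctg
Igtp: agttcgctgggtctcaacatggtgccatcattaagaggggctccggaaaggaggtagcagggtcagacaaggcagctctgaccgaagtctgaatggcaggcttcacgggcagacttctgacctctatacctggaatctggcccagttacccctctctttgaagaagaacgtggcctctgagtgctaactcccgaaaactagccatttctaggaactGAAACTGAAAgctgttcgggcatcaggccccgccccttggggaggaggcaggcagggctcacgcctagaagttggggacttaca
The match lies 34 to 104 bases before the start in these windows. It is a match of letters, and binding was not measured.

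Gbp2, a guanylate binding protein gene, read 50.1 and 44.4 in WT, 183, 197 and 186 in K14-TCL1 and 167, 164 and 180 in Tcl1-/- (2.00 ± 0.064, adjusted p = 7.34e-07). Ifit1, which binds foreign RNA caps, read 10.6 and 13 in WT, 36.7, 54.8 and 43.2 in K14-TCL1 and 18.6, 20 and 18.8 in Tcl1-/- (1.91 ± 0.15, adjusted p = 9.77e-05). The immunity-related GTPase genes Irgm2, from 41.1 and 45 to 99.1, 109.7 and 107 (1.29 ± 0.056, adjusted p = 3.22e-06), and Iigp1, from 27.9 and 20.2 to 102, 116 and 102 (2.17 ± 0.12, adjusted p = 1.49e-05), rose in a like manner, as did Igtp, from 128 and 102 to 269.5, 260.3 and 268 (1.22 ± 0.091, adjusted p = 6.77e-05). K14-TCL1 and WT arrays were far apart for all 5, and the WT values of Ifit1 and Iigp1 lie near background, where folds are compressed. Oasl2, of the oligoadenylate synthetase family that senses double-stranded RNA, read 16.6 and 26.3 in WT, 111, 113 and 106 in K14-TCL1 and 57.8, 63 and 60.4 in Tcl1-/- (2.39 ± 0.16, adjusted p = 3.18e-05). Rtp4, an interferon-induced chaperone gene, read 29.6 and 25.5, 131, 128 and 111 and 71.8, 78.7 and 63.2 on its brighter probe set (2.16 ± 0.11, adjusted p = 7.71e-06), while another had a difference of 0.00.
Factors that carry the interferon signal to these promoters, Stat2 (0.53 ± 0.074) and Irf9 (0.49 ± 0.064), rose as well. Samhd1, which depletes deoxynucleotides, rose by 1.10 ± 0.058 in K14-TCL1 (adjusted p = 9.68e-06) and had a difference of -0.05 in Tcl1-/- (adjusted p = 0.59). Usp18, which damps the interferon receptor, read 73.6 and 74.6, 164, 168 and 153 and 101, 104 and 96.7 (1.12 ± 0.052, adjusted p = 4.5e-06). For the antiviral list as a whole K14-TCL1 stood above Tcl1-/-: 22 of 33 genes were called higher and none lower in that contrast, with a median of 0.24, while of the 7 GTPase genes 1 was higher and 1 lower, with a median of 0.13. Genes that did not pass the test against WT included the sensor kinase gene Eif2ak2 (0.07 ± 0.068, adjusted p = 0.487) and Ifitm3 (-0.10 ± 0.035, adjusted p = 0.077), the latter called lower with the prior variance that followed the mean intensity (adjusted p = 0.00929).

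**Figure D3:**
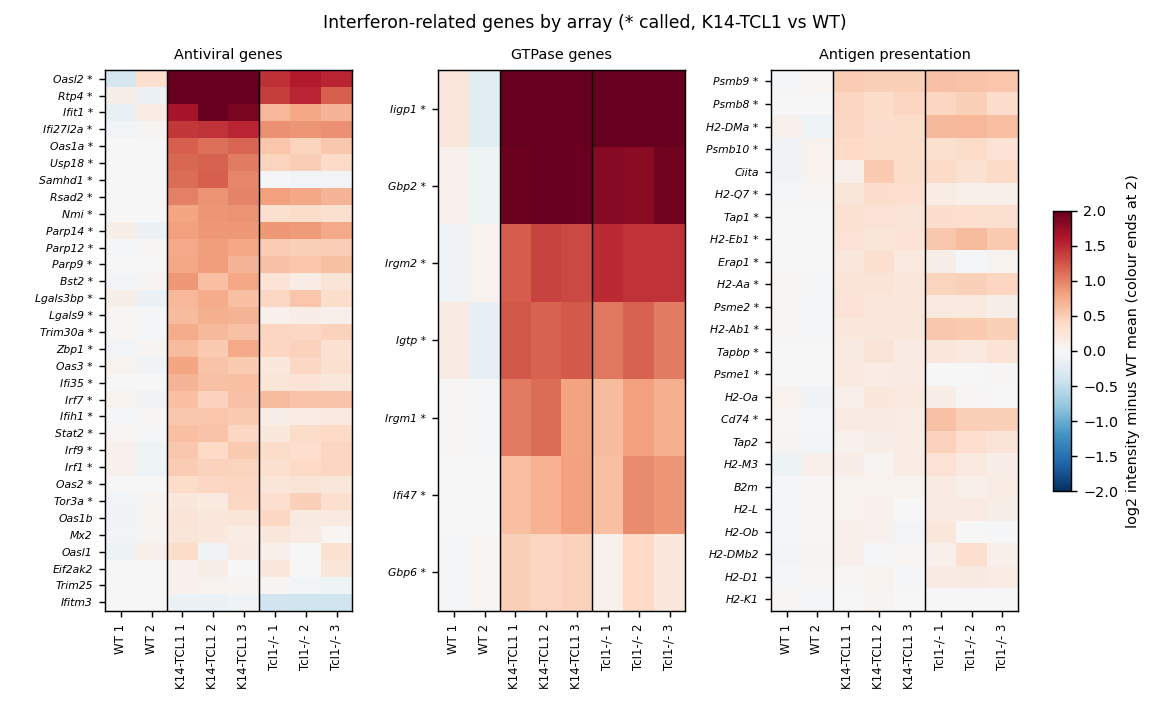
Log2 intensity minus the WT mean by array, for 32 of the 33 antiviral genes, 7 GTPase genes and 24 antigen presentation genes, rows ordered by the K14-TCL1 difference, with an asterisk at genes called in K14-TCL1 against WT; the colours end at 2 on either side. The K14-TCL1 columns are red for most antiviral genes, deeper than the Tcl1-/- columns, and both are alike for the GTPase genes.

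Antigen presentation and chemokine genes gave more detail. Among chemokine genes 29.41% were higher and 17.65% lower, against 11.7% and 9.84% of all tested genes. Psmb9, a subunit of the immunoproteasome, read 346 and 362 in WT and 500.5, 490 and 491 in K14-TCL1 (0.48 ± 0.037, adjusted p = 7.8e-05), and its companions Psmb8 (0.41 ± 0.047) and Psmb10 (0.38 ± 0.047) rose too. The peptide transporter gene Tap1 rose by 0.28 ± 0.035 on its brightest probe set, with 2 of 4 probe sets of that sign. The class I genes H2-K1 (0.02 ± 0.038, adjusted p = 0.776) and H2-D1 (0.02 ± 0.040, adjusted p = 0.739) did not pass the test, and of their 4 and 9 probe sets 3 and 5 had this sign. Genes of this locus share sequence. Of 17 tested chemokine genes, 5 were higher and 3 lower (3 higher without WT replicate 1). Cxcl9 and Cxcl10, which draw activated T cells, rose from 19.9 and 27.6 to 75, 85.6 and 78.1 (1.76 ± 0.13, adjusted p = 5.12e-05) and from 45.2 and 47.7 to 114, 119 and 109 (1.29 ± 0.050, adjusted p = 1.83e-06). The dendritic cell chemokine gene Ccl22 fell from 206 and 225 to 105, 121 and 113 (-0.93 ± 0.080, adjusted p = 0.000155), Cxcl14, which epithelia make at rest, from 654 and 667 to 447, 438 and 408 (-0.62 ± 0.047, adjusted p = 7.82e-05), and Ccl20 by 0.46 ± 0.046.

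Markers of immune cells were more often higher than lower, against 11.7% higher and 9.84% lower of all tested genes. For T cells the shares were 62.5% and 6.25%, for Langerhans cells 53.85% and 7.692%, and for neutrophils and macrophages 50% and 10%. Of 16 tested markers of epidermal T cells, 10 were higher and 1 lower, with a median of 0.31, and their summed intensity was 3538 to 3659 in K14-TCL1, 3198 to 3215 in WT and 3206 to 3256 in Tcl1-/-. The T cell receptor chain genes Cd3d, from 109.5 and 110.3 in WT to 148, 167 and 158 in K14-TCL1 (0.52 ± 0.061, adjusted p = 0.00076), and Cd3g, from 187 and 178 to 239, 264 and 254 (0.47 ± 0.053, adjusted p = 0.000621), rose, as did the kinase gene Lck (0.41 ± 0.060) and the leukocyte phosphatase gene Ptprc (0.41 ± 0.049). The marker that fell was Thy1 (-0.25 ± 0.037), which is in the fibroblast list too, and the part of either cell type was not tested. Against Tcl1-/-, 9 of the 16 were higher in K14-TCL1 and none lower, with a median of 0.15. Of 13 Langerhans cell markers, 7 were higher and 1 lower than in WT (3 higher without WT replicate 2, 2 lower without Tcl1-/- replicate 1), with a summed intensity of 11310 to 11360 in K14-TCL1, 10160 to 10540 in WT and 13310 to 13830 in Tcl1-/-. The higher ones included the class II genes H2-Ab1, H2-Eb1 and H2-Aa (0.25 ± 0.038 for the last), while Cd207, which encodes langerin, read 626 and 629 in WT and 615, 647 and 624 in K14-TCL1 and did not pass the test (adjusted p = 0.979). Of 10 neutrophil and macrophage markers, 5 were higher and 1 lower (none lower without WT replicate 1 or 2), with a summed intensity of 1949 to 2023 in K14-TCL1 and 1677 to 1726 in WT. Fcer1g (0.45 ± 0.056) and Tyrobp (0.44 ± 0.063), adaptor genes of myeloid cells, rose, the neutrophil receptor gene Cxcr2 fell (-0.39 ± 0.086; adjusted p = 0.0892 without WT replicate 1), and the neutrophil elastase gene Elane stayed under the filter, at up to 24.8 in K14-TCL1 and 21.8 in WT. In Tcl1-/- the summed intensity of the 10 neutrophil and macrophage markers was higher still, at 2167 to 2234. There 7 of them were higher and 1 lower than in WT, where 14.4% of all tested genes were higher. The part of immune cells in the interferon, chemokine and S100a8 results was not tested.

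Mitosis genes fell as a block while most DNA replication genes did not pass the test. Cells copy their DNA in S phase and divide in M phase with separate sets of enzymes, and many genes of the latter set carry a promoter element called CHR, through which a repressor holds them off in resting cells. Of 49 tested mitosis genes, 45 were lower in K14-TCL1 than in WT and none higher, with a median of -0.40. With single arrays left out in turn, 33 to 45 were called lower. Of 42 tested DNA replication and G1/S genes, 5 were lower (11.9%, near the 9.84% of all tested genes) and 1 higher, with a median of -0.01, and 2 and 3 were lower without WT replicate 1 and WT replicate 2. In Tcl1-/- the medians against WT were -0.30 for mitosis, where 38 genes were lower (12.2% of all tested genes were), and -0.21 for replication, where 22 were. Set against Tcl1-/- directly, K14-TCL1 had 28 mitosis genes lower and 2 higher, with a median of -0.18, but 21 replication genes higher and 1 lower, with a median of 0.17.

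**Figure D4:**
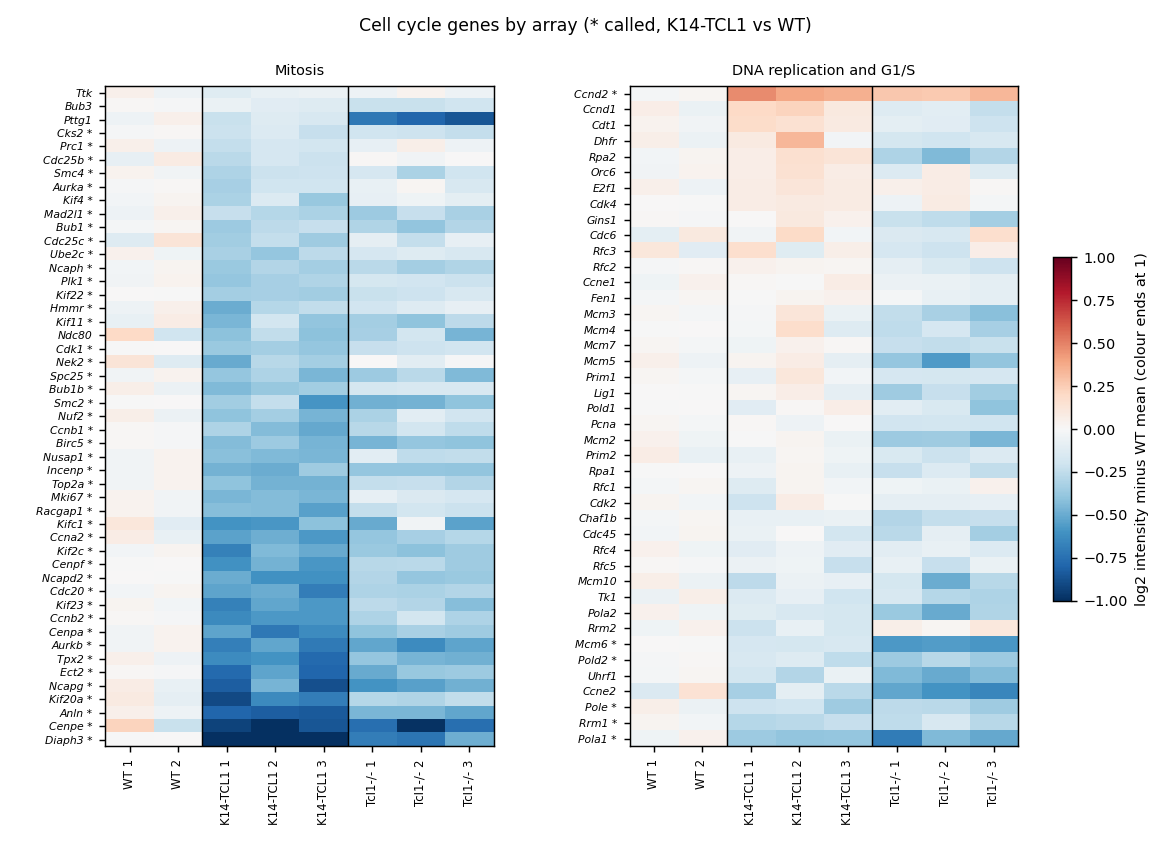
Log2 intensity minus the WT mean by array, for 49 mitosis genes and 42 DNA replication and G1/S genes, rows ordered by the K14-TCL1 difference, with an asterisk at genes called in K14-TCL1 against WT; the colours end at 1 on either side. The K14-TCL1 columns are blue through the mitosis panel and near white through most of the replication panel, where most Tcl1-/- columns are pale to mid blue.

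CHR was searched as TTTGAA or TTCAAA, the same element read on either strand. It stood in the window of 29 of 42 mitosis genes that had one, of 4 of 33 replication genes, and of 1065 (13.9%) of the 7646 genes. Windows of 3 mitosis genes that hold it are printed with CHR in capitals. Genes of the same single chromosome as before were left out of this choice, and the 3 had the largest falls among the rest. They were Anln (chr9:22389157-22389456, - strand), Ncapg (chr5:45669675-45669974, + strand) and Ect2 (chr3:27153829-27154128, - strand, 1 of 2 windows of the gene).
Anln: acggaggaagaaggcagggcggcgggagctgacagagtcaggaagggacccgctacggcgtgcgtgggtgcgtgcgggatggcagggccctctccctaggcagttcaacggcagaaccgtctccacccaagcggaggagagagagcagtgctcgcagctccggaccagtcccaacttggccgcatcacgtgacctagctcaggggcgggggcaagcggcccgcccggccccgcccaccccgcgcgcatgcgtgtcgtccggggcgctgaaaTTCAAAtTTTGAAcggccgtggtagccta
Ncapg: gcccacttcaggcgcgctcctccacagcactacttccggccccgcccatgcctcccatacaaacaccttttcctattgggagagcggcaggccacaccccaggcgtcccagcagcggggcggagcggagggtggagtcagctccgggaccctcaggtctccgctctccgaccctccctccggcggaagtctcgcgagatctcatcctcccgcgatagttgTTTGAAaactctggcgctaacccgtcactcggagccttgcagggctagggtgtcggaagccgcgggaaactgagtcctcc
Ect2: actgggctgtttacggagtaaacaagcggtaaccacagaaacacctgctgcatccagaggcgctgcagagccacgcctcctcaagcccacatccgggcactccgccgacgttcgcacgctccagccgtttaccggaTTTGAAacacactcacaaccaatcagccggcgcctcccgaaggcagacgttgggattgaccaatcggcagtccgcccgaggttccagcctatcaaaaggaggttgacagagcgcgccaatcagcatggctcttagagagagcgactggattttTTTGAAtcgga
In Ncapg the match lies 30 bases before the start, in Anln both matches lie after it, and in Ect2 a match lies 114 bases before it and another after it. Such short letters are common in any sequence, and binding was not measured.

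Anln, the scaffold anillin of the cleavage furrow, read 569 and 533 in WT, 317, 310.2 and 307 in K14-TCL1 and 402, 401 and 385 in Tcl1-/- (-0.82 ± 0.043, adjusted p = 8.94e-06). Diaph3, a formin that builds actin for cytokinesis, read 90.1 and 90.1 in WT, 27.1, 27.1 and 34.1 in K14-TCL1 and 55.8, 54.2 and 64.2 in Tcl1-/- (-1.62 ± 0.11, adjusted p = 3.62e-05). Cenpe, the kinetochore motor that aligns chromosomes, read 68.3 and 50.4 in WT and 30.9, 22.5 and 32.4 in K14-TCL1 (-1.05 ± 0.18, adjusted p = 0.00442). In each of these the WT arrays were the highest, and for the first and second K14-TCL1 was also below Tcl1-/- (adjusted p = 0.000576 and 0.000321). The mitotic cyclin gene Ccnb2 fell from 334 and 328 to 213, 222 and 222 (-0.60 ± 0.049, adjusted p = 0.000115), the condensin gene Ncapd2 from 331 and 330.1 to 235, 218 and 217 (-0.57 ± 0.048, adjusted p = 0.000134) and the kinetochore gene Cenpf from 194 and 194 to 128, 139.6 and 129.9 (-0.55 ± 0.049, adjusted p = 0.000165). Ncapg (-0.72 ± 0.11), another condensin subunit, Ect2 (-0.70 ± 0.081), the exchange factor that starts furrowing, the spindle kinase Aurkb (-0.64 ± 0.063) and the proliferation marker Mki67 (-0.45 ± 0.041) fell with them. The genes that did not pass the test were Pttg1, Ndc80, Bub3 and Ttk, with differences of -0.17 ± 0.055, -0.35 ± 0.12, -0.10 ± 0.035 and -0.08 ± 0.048, and Pttg1, Ndc80 and Bub3 passed it with the prior variance that followed the mean intensity.
On the replication side, the sliding clamp gene Pcna (-0.01 ± 0.037, adjusted p = 0.828) and the helicase genes Mcm2 (-0.01 ± 0.050, adjusted p = 0.863) and Mcm5 (0.00 ± 0.069, adjusted p = 0.98) did not pass the test. Ccnd2, the D-type cyclin that carries cells through G1, rose from 1397 and 1430 to 1959, 1851 and 1812 (0.41 ± 0.045, adjusted p = 0.000544). The polymerase alpha gene Pola1 read 144 and 152 in WT and 115, 113 and 113 in K14-TCL1 (-0.38 ± 0.071, adjusted p = 0.00741), and that call was lost without WT replicate 2 (adjusted p = 0.062).

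Immediate early genes changed in part. Outside AP-1, 32% of those tested were higher and 24% lower, against 11.7% and 9.84% of all tested genes. Of 10 tested AP-1 genes, 3 were higher (30%, against 11.7% of all tested genes) and 1 lower (10%, near the 9.84% of all tested genes). Beside Fos, Fosb rose from 35.7 and 41 to 89.7, 103 and 89.6 (1.30 ± 0.080, adjusted p = 2.37e-05), and Atf3, a stress-induced factor, from 50 and 97.2 to 196, 212 and 190 (1.52 ± 0.22, adjusted p = 0.00248). Fosl1, the subunit most tied to migrating KCs, fell from 145 and 157 to 98.5, 102 and 104 (-0.57 ± 0.051, adjusted p = 0.000171). The Jun partners showed no call: Jun read 0.13 ± 0.046 (adjusted p = 0.0763, and 0.0363 with the prior variance that followed the mean intensity), Junb 0.06 ± 0.052 (adjusted p = 0.478) and Jund -0.11 ± 0.052 (adjusted p = 0.164). Of 25 other immediate early genes, 8 were higher and 6 lower (3 lower without WT replicate 1). Egr1, a zinc finger factor, read 1392 and 1390 in WT, 2022, 2034 and 1937 in K14-TCL1 and 2764, 2745 and 2914 in Tcl1-/- (0.52 ± 0.042, adjusted p = 0.000106), and the antiproliferative gene Btg2 313 and 288, 506, 462 and 531 and 628, 635 and 673 (0.73 ± 0.066, adjusted p = 0.000181). Fos, Egr1 and Btg2 shared the order WT, K14-TCL1, Tcl1-/-, with K14-TCL1 under Tcl1-/- at adjusted p = 0.000416, 7.87e-05 and 0.00301. Ptgs2, the inducible prostaglandin synthase, was lower (-0.51 ± 0.084, adjusted p = 0.0042).

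In the MAPK and growth factor pathways, calls went in both directions. Among MAPK phosphatase and Sprouty genes 25% were higher and 25% lower, against 11.7% and 9.84% of all tested genes. Dusp1, the phosphatase that turns off MAPKs in the nucleus, read 686 and 679 in WT, 1517, 1537 and 1513 in K14-TCL1 and 2180, 2268 and 2238 in Tcl1-/- (1.16 ± 0.035, adjusted p = 6.03e-07), while Dusp6, which acts on ERK, fell from 274 and 272 to 224, 224 and 212 (-0.31 ± 0.042, adjusted p = 0.00156). Of 12 tested MAPK phosphatase and Sprouty genes, 3 were higher and 3 lower, and 1 was higher without WT replicate 1 or 2. Of 35 MAPK cascade genes, 2 were higher and 4 lower, against background shares of 11.7% and 9.84%, with a median of -0.05, and 0 to 1 were higher with any array but K14-TCL1 replicate 3 left out and 1 to 2 lower without WT replicate 1 or 2. A call that held in every alternative was that of the stress kinase kinase gene Map2k4, from 1496 and 1497 to 1161, 1210 and 1109 (-0.37 ± 0.043, adjusted p = 0.000712).
The EGF receptor ligand genes Epgn and Ereg were lower. In their list of receptors and ligands 36.36% were lower and 9.091% higher, against 9.84% and 11.7% of all tested genes. Epgn read 165, 156 and 159.9 in Tcl1-/-, further from the WT values given above. Ereg read 2473 and 2600 in WT, 1683, 1773 and 1604 in K14-TCL1 and 1168, 1108 and 1148 in Tcl1-/- (-0.59 ± 0.051, adjusted p = 0.000155), so that both stood between WT and Tcl1-/-. Of 11 genes of that receptor family and its ligands, 4 were lower and 1 higher, and 2 were lower without WT replicate 1, WT replicate 2 or K14-TCL1 replicate 3 (0, 0 and 3 higher). In the IGF1 axis, 3 of 12 genes were higher (25%, against 11.7% of all tested genes) and none lower, with a median of 0.02. The called share, 25%, was near the 21.5% of all tested genes. Those that rose included the binding protein gene Igfbp4, from 400.1 and 381 to 508, 506 and 520.4 (0.39 ± 0.051, adjusted p = 0.00139), and the adaptor gene Irs1, from 409.6 and 410.4 to 489.8, 554 and 504 (0.33 ± 0.053, adjusted p = 0.00365). Of 21 genes of PI3K, AKT and FOXO, the pathway to which TCL1 proteins bind, 3 were higher and 3 lower (without WT replicate 2, 1 and 0, and without WT replicate 1, 1 lower), which is 14.29% each way against 11.7% and 9.84% of all tested genes, with a median of -0.05. These shares are near those of all genes. Akt1 did not pass the test (-0.06 ± 0.040, adjusted p = 0.348). The arrays read RNA, not kinase activity.

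Calls among cytoskeletal genes went both ways, with 13.64% higher and 27.27% lower, against 11.7% and 9.84% of all tested genes. The share that was higher was near that of all genes. Of 44 tested genes, 6 were higher and 12 lower, and 7 and 5 were lower without WT replicate 1 and WT replicate 2. Beside Cap1, Pfn1, which loads actin monomers, rose from 1058 and 1115 to 1922, 1700 and 1927 (0.77 ± 0.059, adjusted p = 8.34e-05), and the tubulin gene Tubb6 from 118 and 121 to 232, 247 and 254 (1.03 ± 0.064, adjusted p = 2.56e-05). Tubb6 stood at 99.4, 94.8 and 86.3 in Tcl1-/-, on the other side of WT. The actin bundler gene Synpo fell from 135 and 129 to 75.7, 77.4 and 74.6 (-0.80 ± 0.039, adjusted p = 6.53e-06).

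Lists of metabolic genes had medians of small size. In the redox and xenobiotic list 54.29% were higher and 5.714% lower, against 11.7% and 9.84% of all tested genes. Of 35 tested redox and xenobiotic genes, 19 were higher (12 without WT replicate 2) and 2 lower (1 with any array left out), with a median of 0.18. Cyp2g1, a cytochrome P450 gene, rose from 97.2 and 97.7 to 283, 300.2 and 282 (1.56 ± 0.17, adjusted p = 0.00046) and stood at 40.6, 63.9 and 61.8 in Tcl1-/-, below WT. Mt4, the metallothionein of squamous epithelia, read 1261 and 1219 in WT, 2389, 2495 and 2578 in K14-TCL1 and 3307, 3085 and 3200 in Tcl1-/- (1.00 ± 0.048, adjusted p = 5.43e-06). The alcohol dehydrogenase gene Adh1 rose from 266 and 271 to 461, 469 and 474 (0.80 ± 0.035, adjusted p = 3.22e-06), and Txnrd1, the thioredoxin reductase, fell from 938 and 922 to 684, 675 and 619.7 (-0.50 ± 0.049, adjusted p = 0.000284).
Of 24 tested sterol synthesis genes, 14 were lower and 1 higher, with a median of -0.19, and 7 and 9 were lower (none higher) without WT replicate 1 and WT replicate 2. With all arrays, 58.33% of this list were lower and 4.167% higher, against 9.84% and 11.7% of all tested genes. The sterol regulator gene Srebf2 fell from 595 and 603 to 473, 464 and 419.7 (-0.41 ± 0.053, adjusted p = 0.00123) and the demethylase gene Cyp51 from 1445 and 1411 to 1097, 1103 and 1034 (-0.41 ± 0.040, adjusted p = 0.000301). The ceramide hydroxylase gene Degs2 rose from 196 and 192 to 335, 316 and 336 (0.76 ± 0.047, adjusted p = 2.34e-05) and stood below WT in Tcl1-/-, at 139.8, 136 and 130.
Of 17 clock genes, 8 were higher and 2 lower (5 higher without WT replicate 1 or 2, 1 lower without WT replicate 1 and 4 lower without K14-TCL1 replicate 2). The output genes Dbp, from 342 and 366 to 574, 575 and 589 (0.71 ± 0.041, adjusted p = 1.49e-05), and Tef, from 419 and 433 to 564, 595 and 589.6 (0.45 ± 0.041, adjusted p = 0.000186), and the period genes Per1 (0.56 ± 0.069) and Per3 (0.64 ± 0.066) rose, and Arntl, which encodes the activator BMAL1, fell (-0.33 ± 0.057, adjusted p = 0.00482). With all arrays, 47.06% of the clock genes were higher and 11.76% lower, against 11.7% and 9.84% of all tested genes. The sources used here do not give the hour of sampling, and its part was not tested.

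**Figure D5:**
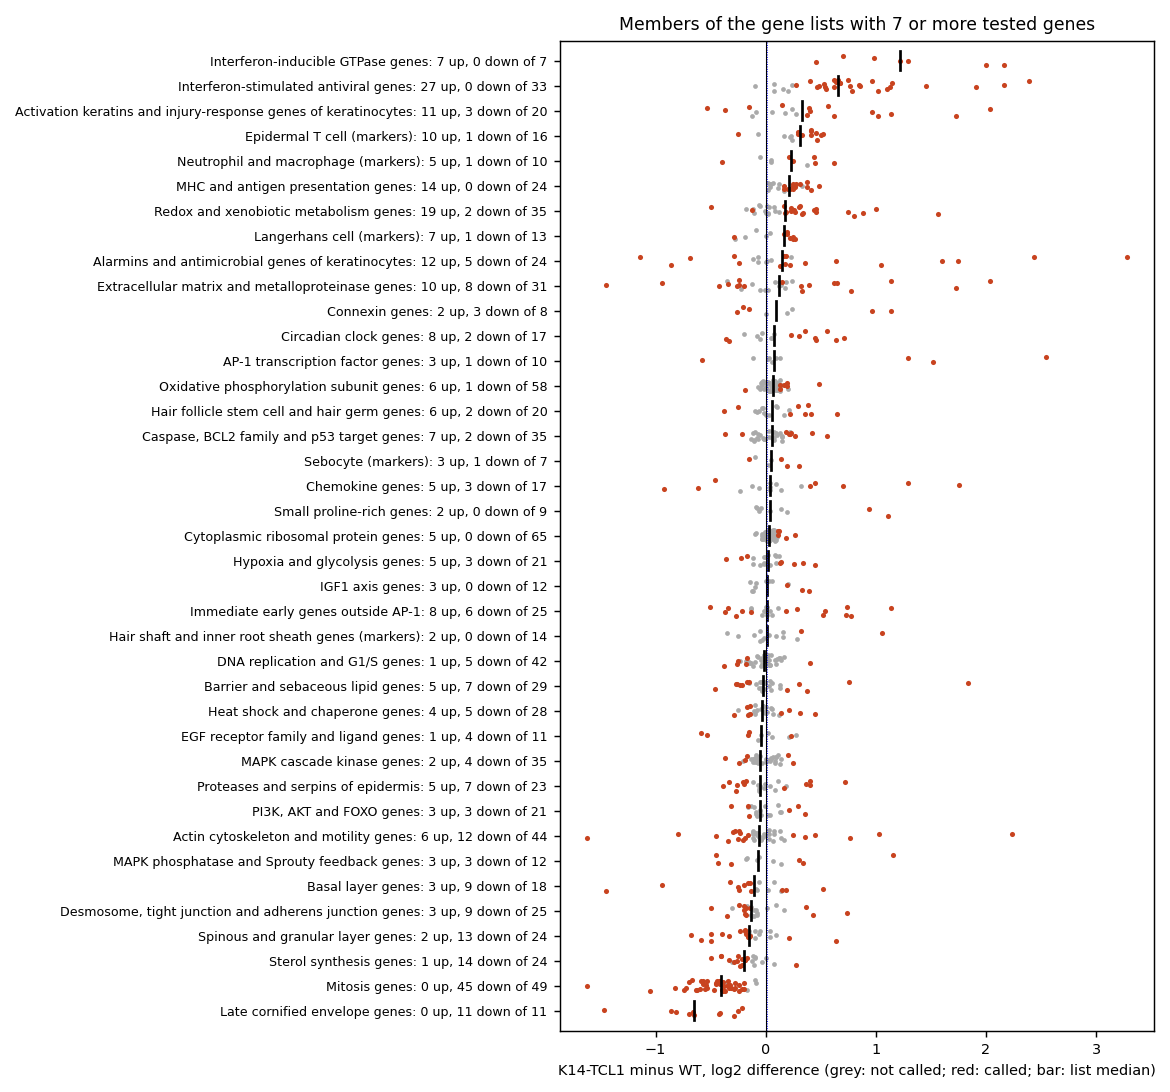
Log2 difference between K14-TCL1 and WT of each tested member of the gene lists with 7 or more tested genes, 1 point per gene, red where called and grey where not, with a black bar at the list median and a dotted line at the median of all tested genes (0.010); a gene can be in several lists. Interferon lists stand at the top, with medians of 1.22 and 0.66, and mitosis (-0.40) and late envelope genes (-0.65) at the bottom.

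Lists of general cell functions had medians of small size, but their called shares differed. These were 7.692% for ribosomal protein, 12.07% for oxidative phosphorylation and 32.14% for chaperone genes. They were 25.71% for caspase, BCL2 and p53 target genes and 38.1% for hypoxia and glycolysis genes, against 21.5% of all tested genes. The median differences were 0.03 over 65 ribosomal protein genes (from -0.10 to 0.27), 0.07 over 58 oxidative phosphorylation genes (-0.19 to 0.48) and -0.04 over 28 chaperone genes (-0.29 to 0.45). Among 35 caspase, BCL2 and p53 target genes, with a median of 0.06, the inflammatory caspase gene Casp1 rose from 216 and 210.2 to 307, 328 and 308 (0.56 ± 0.045, adjusted p = 0.000106). The p21 gene Cdkn1a did not pass the test (-0.01 ± 0.037, adjusted p = 0.891). Among 21 hypoxia and glycolysis genes, with a median of 0.02, Bnip3, which marks mitochondria for removal, read 510.3 and 509 in WT, 672, 700.4 and 716 in K14-TCL1 and 1117, 1140 and 1154 in Tcl1-/- (0.45 ± 0.040, adjusted p = 0.000165).

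Markers of other cell types of skin were called in some lists at more than the 21.5% of all tested genes and in others at less. Of 20 hair follicle stem cell and germ genes, 6 were higher and 2 lower (3 higher without WT replicate 1 or 2, 1 lower without WT replicate 2), among them Lhx2, which maintains follicle stem cells, from 38.9 and 32.3 to 50.4, 59.7 and 57.1 (0.65 ± 0.090, adjusted p = 0.00182). Of 14 hair shaft and root sheath genes, the hair keratin genes Krt32, from 77.9 and 83.3 to 166, 171 and 166 (1.06 ± 0.046, adjusted p = 3.22e-06), and Krt85 (0.32 ± 0.049) were higher and none was lower (2 without K14-TCL1 replicate 2). The melanocyte enzyme gene Dct rose from 51.7 and 44.9 to 68.9, 64.5 and 69.4 (0.49 ± 0.063, adjusted p = 0.00123), and the other 5 tested melanocyte markers did not pass the test (2 higher in all without Tcl1-/- replicate 3). Of 6 fibroblast markers, 3 were lower (Thy1, Sparc and Col6a1) and none higher (1 without K14-TCL1 replicate 2), while Col1a2 (0.12 ± 0.065, adjusted p = 0.226) and Dcn (-0.22 ± 0.092, adjusted p = 0.123, and 0.011 without WT replicate 2) did not pass the test and the collagen gene Col1a1 was below the intensity filter. Of 7 sebocyte markers, 3 were higher and 1 lower (1 higher without WT replicate 2, 0 lower without WT replicate 1 or 2), and the lipid carrier gene Fabp5 (0.19 ± 0.033, adjusted p = 0.00526) kept its call in every alternative. Of 4 tested endothelial markers all had a positive difference and 1, the receptor gene Flt1, was called higher (0.32 ± 0.064, adjusted p = 0.00952, and 0.0681 without WT replicate 1), with Pecam1 and Cdh5 below the filter. None of the 5 tested muscle and fat cell markers was called, among them Ckm (0.08 ± 0.061, adjusted p = 0.411), and Myh4 and Adipoq were below the filter. Col1a1, Pecam1, Cdh5, Myh4 and Adipoq read at most 19.8 in K14-TCL1 and 16.2 in WT.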

How the data were processed

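The epidermis of 8 mice was read on Affymetrix arrays at day 3 after depilation, and the K14-TCL1 (3) and WT (2) arrays were compared. The methods name 3 animals and 3 chips for each genotype and the 430 2.0 array, whereas 2 WT arrays and a table of 22690 probe sets were analysed here. The deposited values are intensities on a linear scale, made by the authors with RMA, which corrects the background, equalises the arrays by quantiles and summarises each probe set (version not given in the sources used here). No array was pooled and depth does not apply, so the number of arrays limits the precision. A second copy of the values was equal to the first and was not used further. RMA equalises the distributions, so a change shared by all genes would not be seen, and it leaves low intensities at a background level, which compresses folds.

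The values were taken to log2. Without 64 control probe sets, 492 that carry no gene name and 578 that carry several, 21556 remained (1633 names updated through RefSeq GRCm38.p6 and 445 kept as given), for 13201 genes. The probe set with the highest mean over all arrays stood for a gene, and 3670 genes had several tested ones, of which 14 had calls in opposite directions. Genes whose highest genotype mean was under 5 on the log2 scale (3470) were not tested. limma 3.58.1 in R 4.3.3 was fitted to the 8 arrays with a mean per genotype (5 residual and 3.32 prior degrees of freedom), with Benjamini-Hochberg adjustment over 9731 genes and a threshold of 0.05. The p-values measure the spread between these arrays. The script was tested on simulated data.

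Genes were named by rule, as the 12 with the largest called difference in each direction without overlap of the arrays and with a mean of at least 5, up to 5 of each of 45 gene lists by smallest unadjusted p, and those that the study measured by other assays. Akt1, Ang, Arntl, Aurkb, Bub3, Cd207, Cd44, Cdkn1a, Col1a2, Col4a2, Cyp2g1, Ect2, Eif2ak2, H2-D1, H2-K1, Ifit1, Ifitm3, Il1a, Il1b, Il33, Irf9, Junb, Jund, Krt1, Krt17, Lck, Lcn2, Lor, Mcm2, Mcm5, Mki67, Ncapg, Ndc80, Pcna, Pglyrp2, Ptgs2, Pttg1, Samhd1, Stat2, Trp63, Ttk and the markers under the filter fell outside that rule and were chosen after their values were seen. The members and lists were chosen with earlier results of these data known, so counts over lists are descriptions. Some single genes of the lists are counted but not reported here. Alternatives changed the filter, the probe set per gene, the scaling, the arrays in the fit, the variance model, the block and the criteria, and left out each array in turn. Promoter windows were searched for letters in Python 3.11.15, and figures were drawn with matplotlib 3.10.9.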

Additional observations from a re-analysis of the deposited data

How the results depend on the processing

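Among the 2096 calls, the WT arrays mattered most. With each array left out in turn the count ran from 971 (without WT replicate 1) to 2208 (without K14-TCL1 replicate 2), with 551 to 1083 higher and 420 to 1125 lower. Tools and thresholds gave further counts. With the methods' criteria (probe sets at least 1.4-fold from their median on at least 20% of the arrays, unadjusted p under 0.001), 226 of 369 probe sets were called, 153 higher and 73 lower, and 76 and 80 without WT replicate 1 and WT replicate 2. At more than 1.5-fold in place of 2-fold, 122 genes were higher (46) and 57 lower (11). The other settings gave 1549 (K14-TCL1 and WT arrays alone) to 2583 calls over genes (prior variance that follows the mean intensity) and 2750 over all probe sets, and centring each array on its median turned the balance from 1138 higher and 958 lower to 953 and 1068 (54.29% to 47.15% higher) and the median of all genes from 0.010 to -0.0051 on the log2 scale. Without K14-TCL1 replicate 2 the balance also turned, to 1083 higher and 1125 lower. The replicate number as a block gave 1540 calls, 872 higher and 668 lower, 1443 of them among the 2096. Arrays of the same number in different genotypes did not deviate together (r from -0.061 to 0.057), so the numbers were not taken to pair them. With the block 3 DNA replication and G1/S genes were higher in place of 1. No difference of a named gene that was called changed its sign. Of the counts over lists, 1356 were within 1.5 times their main value and 174 were not. For single genes in K14-TCL1 against WT, 3660 values kept their side of the threshold, 162 lost a call and 21 gained one. Low intensities kept 3470 genes out of the test. Of those tested, 3460 had an unadjusted p under 0.05, and the smallest difference called was 0.11 on the log2 scale.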

Other observations

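The genes beside Tcl1 on its chromosome were read as well, since K14-TCL1 mice carry the deletion. Of the 50 tested genes nearest to it in RefSeq gene order, 25 on each side, 5 were higher and 4 lower in K14-TCL1 than in WT, which is 18.0% against 21.5% of all tested genes. With 10 on each side 3 were higher and 1 lower of 20, and with up to 50 on each side 7 were higher and 9 lower of 96. The interferon-induced gene Ifi27l2a was higher by 1.46 ± 0.049 on the log2 scale (K14-TCL1 minus WT ± SE, limma adjusted p = 8.63e-07) and by 0.90 in Tcl1-/- against WT, and the serpin gene Serpina3g by 0.86 ± 0.054 (adjusted p = 2.58e-05) and by 1.04. The serpin gene Serpina12 was higher by 0.37 ± 0.036 (adjusted p = 0.000274) and by 0.39 in Tcl1-/- against WT. Degs2, also among these neighbours, was higher by 0.76 ± 0.047 in K14-TCL1 and had a difference of -0.52 in Tcl1-/-. Chga, which encodes the granule protein chromogranin A, fell by 0.43 ± 0.078 (adjusted p = 0.00652), and the calponin-like gene Clmn by 0.44 ± 0.10 (adjusted p = 0.0199). In Tcl1-/- against WT the differences were -0.09 for Chga and -0.42 for Clmn. The tested Tcl1b genes, which lie next to Tcl1 and belong to its family, did not pass the test in K14-TCL1, with differences of 0.04 for Tcl1b1, 0.15 for Tcl1b3 and 0.03 for Tcl1b4.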
